A study of Mus musculus with 15 samples.

Results

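The melanin synthesis and melanosome genes described here are 9 genes whose products build the pigment granule of the retinal pigment epithelium (RPE) and of choroidal melanocytes. They were taken by symbol from the deposited count table, and all 9 of the names asked for (Tyr, Tyrp1, Dct, Pmel, Mlana, Oca2, Slc45a2, Slc24a5 and Gpr143) were found among its 40481 genes. All 9 passed the filter on low counts that left 17991 genes for testing. The tissue was the mouse RPE/choroid complex, the pigmented epithelium behind the retina together with the vascular choroid beneath it. In 8 libraries the mice carried the INK-ATTAC transgene, an FKBP-caspase 8 fusion driven by the Ink4a promoter, on an Abca1/Abcg1 flox/flox LysM-Cre background. The other 7 libraries, the controls, came from Abca1/Abcg1 flox/flox LysM-Cre mice labelled without the transgene. LysM-Cre drives recombination in myeloid cells, so both groups share the floxed cholesterol transporter alleles, and both received AP20187, the drug that dimerizes the fusion protein, by intraperitoneal injection. The design text gives dosing every other day for 3 months for the INK-ATTAC mice. The transgene acts only in cells that use the Ink4a promoter, and the labels leave it unsaid whether libraries come from separate animals, so p-values measure the spread between these libraries.

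Melanin is made inside melanosomes, lysosome-related organelles that mature as enzymes and transporters are delivered to a fibrillar scaffold. Tyrosinase starts the pathway from tyrosine, and its relatives Tyrp1 and Dct act on later intermediates to give eumelanin. Ion transporters of the melanosome membrane set the pH and ion content in which tyrosinase works. The RPE, which arises from the neural tube, makes most of its melanin early in life and keeps its granules, whereas choroidal melanocytes arise from the neural crest. The transcription factor Mitf acts in both lineages, Otx2 is used in the RPE, and Sox10 is used in neural crest derivatives such as melanocytes and Schwann cells.

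Mitf recognises E-box letters such as CATGTG and CACGTG, and promoter letters are shown as a description of the genes. RefSeq promoter windows on GRCm38.p6 were at hand for 5 of the 9 genes (Tyr, Tyrp1, Dct, Oca2 and Slc24a5), each covering 250 bases before and 50 after the annotated start. The 250 bases before the start of the tyrosinase family follow, read 5′ to 3′ on the gene's own strand, with each CATGTG or its reverse complement CACATG in capitals. They lie at chr7:87493513-87493762 on the minus strand for Tyr, at chr4:80833963-80834212 on the plus strand for Tyrp1 and at chr14:118052247-118052496 on the minus strand for Dct.
Tyr: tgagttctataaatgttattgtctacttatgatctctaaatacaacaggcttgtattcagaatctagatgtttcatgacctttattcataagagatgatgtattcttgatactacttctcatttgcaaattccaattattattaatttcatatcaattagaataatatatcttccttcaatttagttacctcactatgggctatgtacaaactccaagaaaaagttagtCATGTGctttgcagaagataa
Tyrp1: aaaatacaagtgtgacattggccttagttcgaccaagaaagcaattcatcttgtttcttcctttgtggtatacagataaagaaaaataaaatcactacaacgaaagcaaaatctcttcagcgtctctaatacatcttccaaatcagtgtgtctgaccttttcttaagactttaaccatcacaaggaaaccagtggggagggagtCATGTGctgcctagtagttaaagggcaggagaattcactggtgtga
Dct: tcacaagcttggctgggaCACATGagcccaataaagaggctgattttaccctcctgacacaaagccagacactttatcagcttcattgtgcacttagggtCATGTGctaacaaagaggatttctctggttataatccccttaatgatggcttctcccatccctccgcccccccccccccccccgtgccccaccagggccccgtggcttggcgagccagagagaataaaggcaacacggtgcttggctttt

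On either strand, CATGTG was found in 5 of the 5 windows, against 14.2% of all 32851 promoter windows in the table. Counting back from the base before the start as -1, the letters lie at -21 to -16 in Tyr, at -46 to -41 in Tyrp1 and at -150 to -145 in Dct, which holds a reverse-strand copy at -232 to -227. These positions rest on the RefSeq start. For Tyrp1 the GENCODE annotation starts at chr4:80834123, inside the printed window, so its CATGTG lies within the gene by that annotation. In Oca2 the letters stand on the reverse strand at -186 to -181 (tgctaCACATGgctgg), and in Slc24a5 at -13 to -8 (ctgctCACATGattca), with the match in capitals. The longest run of letters common to the 3 tyrosinase family windows was GTCATGTGCT, which contains CATGTG. It was found from those windows, so its presence in them (3 of the 5) is no test, and it occurred in 0.186% of all windows (61 windows) on either strand. CACGTG, a palindrome, occurred in 0 of the 5, against 7.15% of all windows. These are matches of letters, and binding was not measured here. Whether they bear on the shared variation between libraries given below was not tested.

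Library depth was 47954634 to 65065950 counts in INK-ATTAC libraries and 39121503 to 59974025 in control libraries. The melanin genes were well covered, with counts between 3957 (Gpr143, in a control library) and 187254 (Dct, in an INK-ATTAC library). RPE markers were at high levels in every library, led by Rgr at 34950 ± 3787 CPM (counts scaled to a fixed library total) in INK-ATTAC and 33597 ± 4358 CPM in control libraries (SD, n = 8 and 7). Best1, another RPE gene, was low, with 3.44 ± 0.617 CPM in INK-ATTAC and 3.23 ± 1.14 CPM in control libraries. Sox10, which melanocytes and Schwann cells use, was detected in every library, at 75.9 ± 19.1 CPM in INK-ATTAC and 73.4 ± 16.7 CPM in control libraries. The targeted promoter's own gene, Cdkn2a, had 0 to 4 counts in INK-ATTAC and 0 to 2 counts in control libraries, too few to check the ablation. Other tissue differed between libraries. Summed lens marker CPM ran from 22.05 to 4220 in INK-ATTAC and from 21.3 to 873 in control libraries. Of the lens markers tested, 12 of 12 had a positive log2 fold change (median 2.61), as had 12 of 12 skeletal muscle markers (median 0.87). None was past the threshold. An unadjusted edgeR p under 0.05 was reached by 8 of these lens and 4 of these muscle markers, against 4.14% of all genes. For rods, 11 of 12 markers had a negative one, none past the threshold. The part of these tissues in the values below was not tested beyond the covariates named in the closing section, which do not include lens.

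Set per exon length and scaled to a fixed library total (TPM), the 9 genes covered a wide range of levels, and their order was the same in both groups. Mlana, a small melanosome membrane protein that binds Pmel, was highest with 2750 ± 302 TPM in INK-ATTAC and 2846 ± 287 TPM in control libraries (SD, n = 8 and 7). Pmel, whose cleaved fragments form the amyloid fibrils on which melanin is laid down, had 2491 ± 485 TPM in INK-ATTAC and 2591 ± 370 TPM in control libraries. Tyrp1, an oxidase of late eumelanin intermediates in mice, had 1993 ± 472 TPM in INK-ATTAC and 2285 ± 260 TPM in control libraries. These 3 genes ranked 36, 39 and 49 among the 17991 genes tested, so the scaffold and 1 enzyme were among the most abundant transcripts of the tissue. Dct, the tautomerase that converts dopachrome, followed with 1166 ± 167 TPM in INK-ATTAC and 1245 ± 117 TPM in control libraries.

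**Figure D1:**
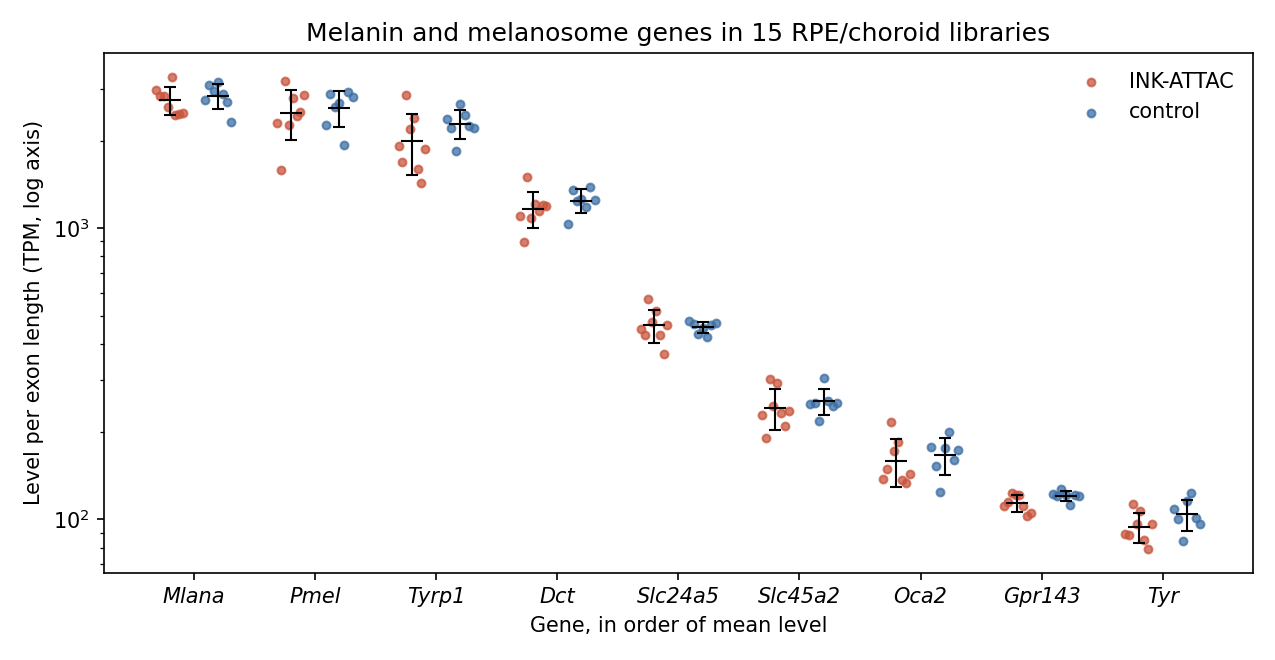
Level per exon length (TPM, log axis) of each gene in each library, with genes from left to right by mean level. Points are libraries, 8 INK-ATTAC at the left and 7 control at the right of each gene, and the bars give the mean and SD. Mlana, Pmel, Tyrp1 and Dct lie above the transporters, the receptor Gpr143 and Tyr, and the points of the groups overlap for every gene.

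The transporters and the receptor stood lower. Slc24a5, a potassium-dependent sodium-calcium exchanger, had 464 ± 60.6 TPM in INK-ATTAC and 457 ± 21.2 TPM in control libraries. Slc45a2, a proton-coupled transporter, had 242 ± 38.6 TPM in INK-ATTAC and 254 ± 26.4 TPM in control libraries. Oca2, a melanosomal anion channel that counters acidity, had 159 ± 29.5 TPM in INK-ATTAC and 166 ± 23.7 TPM in control libraries. Gpr143, a G protein-coupled receptor of the melanosome that limits granule size, had 114 ± 7.79 TPM in INK-ATTAC and 121 ± 4.68 TPM in control libraries. Tyr, which encodes the enzyme that limits the rate of the pathway, was the lowest of the 9 per length, with 94.2 ± 11.3 TPM in INK-ATTAC and 104 ± 12.7 TPM in control libraries, and ranked 1278 among all genes tested. Within the tyrosinase family's summed TPM, Tyr held 2.93 ± 0.219% in INK-ATTAC and 2.86 ± 0.232% in control libraries. Tyrp1 held 60.8 ± 4.36% of it in INK-ATTAC and 62.8 ± 3.52% in control libraries, and Dct held 36.2 ± 4.31% in INK-ATTAC and 34.4 ± 3.70% in control libraries. These shares, and the last place of Tyr, rest on the union of exons as length, 2828 bases for Tyrp1, 5895 for Dct and 7108 for Tyr. Their longest transcripts have 2720, 3459 and 6042 bases. Without length, Tyr was above Oca2 and Gpr143, at 284 against 267 and 96.3 CPM in INK-ATTAC libraries. In control libraries it stood at 307 against 273 and 99.97 CPM. Without length, Dct was above Tyrp1, at 2898 against 2384 CPM in INK-ATTAC and 3039 against 2680 CPM in control libraries.

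Neighbours in this order were compared within libraries by a two-sided exact sign-flip permutation test over the 15 libraries, adjusted over 8 pairs. The order itself came from the mean TPM of these same 15 libraries, so the pairs and their directions were not set beforehand. Of the 8 pairs, 7 differed beyond their spread. The exception was Mlana over Pmel, with a fold of 1.11 and Mlana higher in 10 of 15 libraries (exact p = 0.0687, adjusted p = 0.0687). Without INK-ATTAC 3, without INK-ATTAC 8 or without control 7, that log2 ratio was 0.18 each time and passed the threshold (exact permutation, adjusted p = 0.0448, 0.0393 and 0.0269). Pmel exceeded Tyrp1 by a fold of 1.20 in 12 of 15 libraries (exact permutation, adjusted p = 0.00851), and Gpr143 exceeded Tyr by a fold of 1.19 in 14 of 15 (exact permutation, adjusted p = 0.000407). Tyrp1 exceeded Dct by a fold of 1.75 in 15 of 15 libraries (exact permutation, adjusted p = 0.000122). This step rested on the length used: per base of the longest transcript the log2 ratio of Tyrp1 over Dct was 0.10 and not past the threshold (exact permutation, adjusted p = 0.162), while that of Mlana over Pmel was 0.27 and past it (adjusted p = 0.00314). The widest gap, a fold of 2.60, lay between Dct and Slc24a5 and separated the 4 abundant genes, which held 88.7 ± 0.550% of the 9 genes' summed TPM in INK-ATTAC and 89.04 ± 0.684% in control libraries, from the other 5.

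The series asks what removing Ink4a-expressing cells does to the RPE/choroid, and for the melanin genes no difference between the groups passed the test. Of the 9 genes, 0 were called by edgeR's quasi-likelihood F-test at a Benjamini-Hochberg adjusted p under 0.05, against 0% of all 17991 genes (0 called), and each of the 9 had an adjusted p of 1.00. At an unadjusted p under 0.05 the count was 0 of 9, against 4.14% of all genes (745 genes). DESeq2 called 6 genes (0.0334%) and 3 of 14442 (0.0208%) were called in the authors' deposited table, and 0 of the 9 were among either. The fold change was below 0 for 8 of the 9 genes, against 50.2% of all genes, with a median log2 fold change of -0.04 for the 9 and of -0.00097 for all genes. As the 9 vary together in part, these 8 are not separate observations, and for 4 of them (Pmel, Mlana, Slc45a2 and Oca2) the sign turned in at least 1 other setting. Together the genes took 1.03 ± 0.137% of all counts in INK-ATTAC (0.856 to 1.28%) and 1.09 ± 0.0652% in control libraries (1.00 to 1.19%). In bulk tissue, fewer pigment cells and less of this RNA per cell cannot be told apart.

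**Figure D2:**
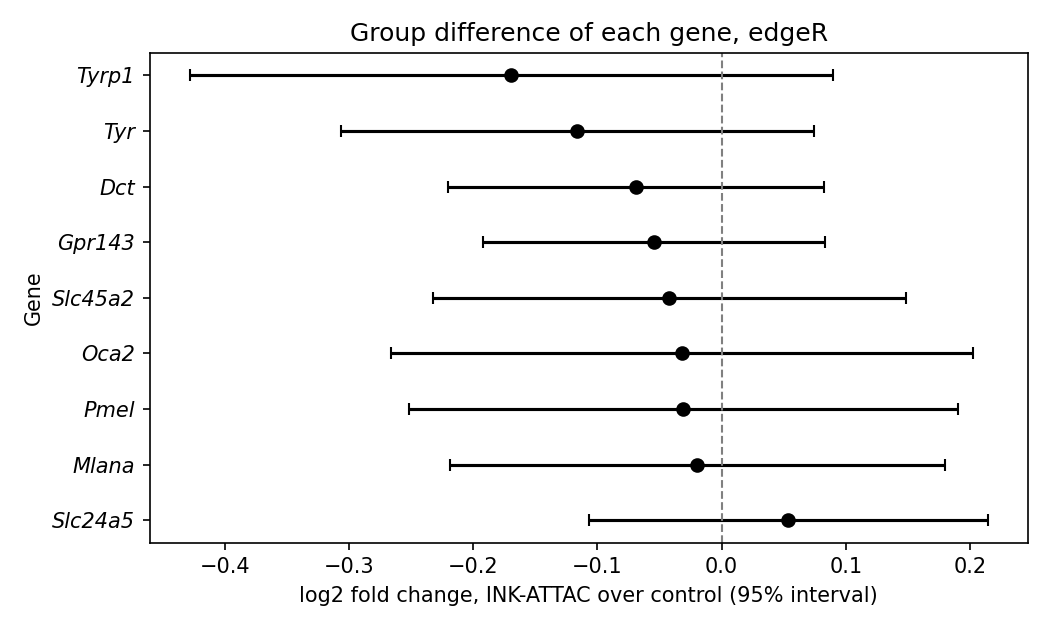
Log2 fold change of each gene, INK-ATTAC over control, as points with 95% intervals from the edgeR fit of 15 libraries, ordered from the lowest at the top. Every interval crosses 0, from Tyrp1 at -0.17 to Slc24a5 at 0.05.

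Among the enzymes, Tyrp1 had the lowest estimate. Its levels ran from 1614 through a median of 2282 to 3205 CPM in INK-ATTAC and from 2274 through 2625 to 3117 CPM in control libraries. Of the 8 INK-ATTAC libraries, 4 lay below the lowest control, 3 inside the control range and 1 above it, so the groups overlapped. The log2 fold change was -0.17 (SE 0.12), a fold of 0.889 with a 95% interval of 0.743 to 1.06 (edgeR, unadjusted p = 0.186). INK-ATTAC 3 held the highest Tyrp1 value of all, and without it the log2 fold change was -0.24 (edgeR, unadjusted p = 0.0485, adjusted p = 0.940), whereas without INK-ATTAC 7, the lowest, it was -0.10. Tyr ran from 224 through 285 to 329 CPM in INK-ATTAC and from 263 through 298 to 379 CPM in control libraries. Here 2 INK-ATTAC libraries lay below the lowest control and 6 inside the control range. Its log2 fold change was -0.12 (SE 0.09; 95% interval of the fold, 0.809 to 1.05). Without control 5, the highest, it was -0.07. Dct ran from 2421 through 2858 to 3484 CPM in INK-ATTAC and from 2572 through 3055 to 3349 CPM in control libraries, with 6 of 8 INK-ATTAC libraries inside the control range and a log2 fold change of -0.07 (SE 0.07; 95% interval of the fold, 0.858 to 1.06).

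The structural genes were nearly level between the groups. Pmel ran from 1664 through 2337 to 2899 CPM in INK-ATTAC and from 1916 through 2579 to 2763 CPM in control libraries, with a log2 fold change of -0.03 (SE 0.10; 95% interval of the fold, 0.840 to 1.14). One low library in each group stood out for Pmel, INK-ATTAC 2 and control 5. Mlana ran from 1042 through 1187 to 1520 CPM in INK-ATTAC and from 974 through 1328 to 1380 CPM in control libraries, with 7 of 8 INK-ATTAC libraries inside the control range and a log2 fold change of -0.02 (SE 0.09; 95% interval of the fold, 0.859 to 1.13). No direction is drawn for either gene.

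For the melanosome transporters and the receptor, every interval included no change. Slc24a5 was the 1 gene of the 9 with a positive estimate, at 0.05 (SE 0.08; 95% interval of the fold, 0.928 to 1.16). It ran from 344 through 460 to 527 CPM in INK-ATTAC and from 414 through 438 to 473 CPM in control libraries, so that 3 INK-ATTAC libraries lay above and 1 below the control range. Its SD was 58.0 CPM in INK-ATTAC and 19.7 CPM in control libraries, a difference that was not tested. Slc45a2 had a log2 fold change of -0.04 (SE 0.09; 95% interval of the fold, 0.851 to 1.11), Oca2 of -0.03 (SE 0.11; 0.832 to 1.15) and Gpr143 of -0.05 (SE 0.07; 0.875 to 1.06). Slc45a2 ran from 249 through 296 to 379 CPM in INK-ATTAC and from 280 through 314 to 377 CPM in control libraries, with 5 of 8 INK-ATTAC libraries inside the control range. Oca2 ran from 210.02 to 339 CPM in INK-ATTAC and from 215 to 342 CPM in control libraries, and 7 of 8 INK-ATTAC libraries lay inside the control range. Gpr143 was the steadiest of the 9, from 81.5 to 105 CPM in INK-ATTAC and from 92.9 to 111 CPM in control libraries. In no case did the groups' ranges separate: 0 of the 9 genes had ranges that did not overlap, against 0.0222% of all genes tested.

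In the authors' deposited table the same genes had log2 fold changes between -0.14 (Tyrp1, adjusted p = 0.842) and 0.05 (Slc24a5, adjusted p = 0.901), and Mlana stood at 0.03 there (adjusted p = 0.965). The lowest adjusted p of the 9 in the authors' deposited table was that of Tyrp1. Exon overlaps could touch a few values, since the strand setting of the counting is not given. Slc24a5 shares 921 exon bases with Myef2 on the opposite strand (Myef2 averaged 16.4 CPM). Pmel shares 105 exon bases with Dgka and 34 with Cdk2, which averaged 11.6 and 61.5 CPM. Reads of these stretches cannot be assigned without strand.

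Individual libraries moved several of the genes at once. INK-ATTAC 7 had the lowest value of its group in 7 of the 9 genes and the lowest of all 15 libraries in 6 of them. The other 2 genes, Pmel and Dct, were lowest in INK-ATTAC 2, both within its group and over all libraries. INK-ATTAC 3 and INK-ATTAC 5 each had the highest value of their group in 4 genes. INK-ATTAC 3 also had the highest mean log2 CPM of the ciliary body and iris markers (3.28, next 2.18 in control 3). The same held for the lens markers (6.12, next 3.95 in INK-ATTAC 4). The part of such tissue in its melanin gene values was not tested. Among control libraries no single one led: control 3 and control 6 were lowest in 3 genes each and control 4 highest in 3.

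Tyr, Tyrp1, Oca2 and Slc45a2 varied together between libraries of 1 group, and each of their 6 pairs passed the threshold by Pearson r and by Spearman rho. Slc24a5 also passed with each of these 4 genes by Pearson r, as given further below. Levels were taken as log2 CPM with each group's mean removed, so that a difference between groups plays no part, and p-values came from 100000 permutations of libraries within groups, adjusted over the 36 pairs of genes. Of the 36 pairs, 13 passed the threshold. Tyr and Oca2 had a Pearson r of 0.897 (permutation p = 1e-05, the smallest possible, adjusted p = 0.00036) and a Spearman rho of 0.889 (permutation p = 2e-05, adjusted p = 0.00036). Tyr and Tyrp1 had an r of 0.885 (permutation p = 2e-05, adjusted p = 0.00036) and a rho of 0.896 (permutation p = 2e-05, adjusted p = 0.00036). For this pair of enzymes r was 0.950 within INK-ATTAC and 0.931 within control libraries, and 0.894 without the 2 libraries farthest from the median. Tyrp1 and Oca2 had an r of 0.886 (permutation p = 4e-05, adjusted p = 0.00048; rho 0.893, permutation p = 9e-05, adjusted p = 0.0009), and Tyrp1 and Slc45a2 an r of 0.882 (permutation p = 0.0001, adjusted p = 0.0009; rho 0.896, permutation p = 0.0001, adjusted p = 0.0009). All 4 of these pairs stayed past the threshold with each library left out in turn, with r never below 0.835. The other 2 pairs were weaker than some outside this set, at an r of 0.782 for Tyr with Slc45a2 (permutation p = 0.00062, adjusted p = 0.00426; rho 0.818, permutation p = 0.00036, adjusted p = 0.00216) and of 0.740 for Oca2 with Slc45a2 (permutation p = 0.003, adjusted p = 0.0135; rho 0.764, permutation p = 0.00246, adjusted p = 0.0127). Tyr with Slc45a2 stayed past the threshold with each library left out, whereas Oca2 with Slc45a2 did not pass without INK-ATTAC 7 (r = 0.679, permutation, adjusted p = 0.0542).

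**Figure D3:**
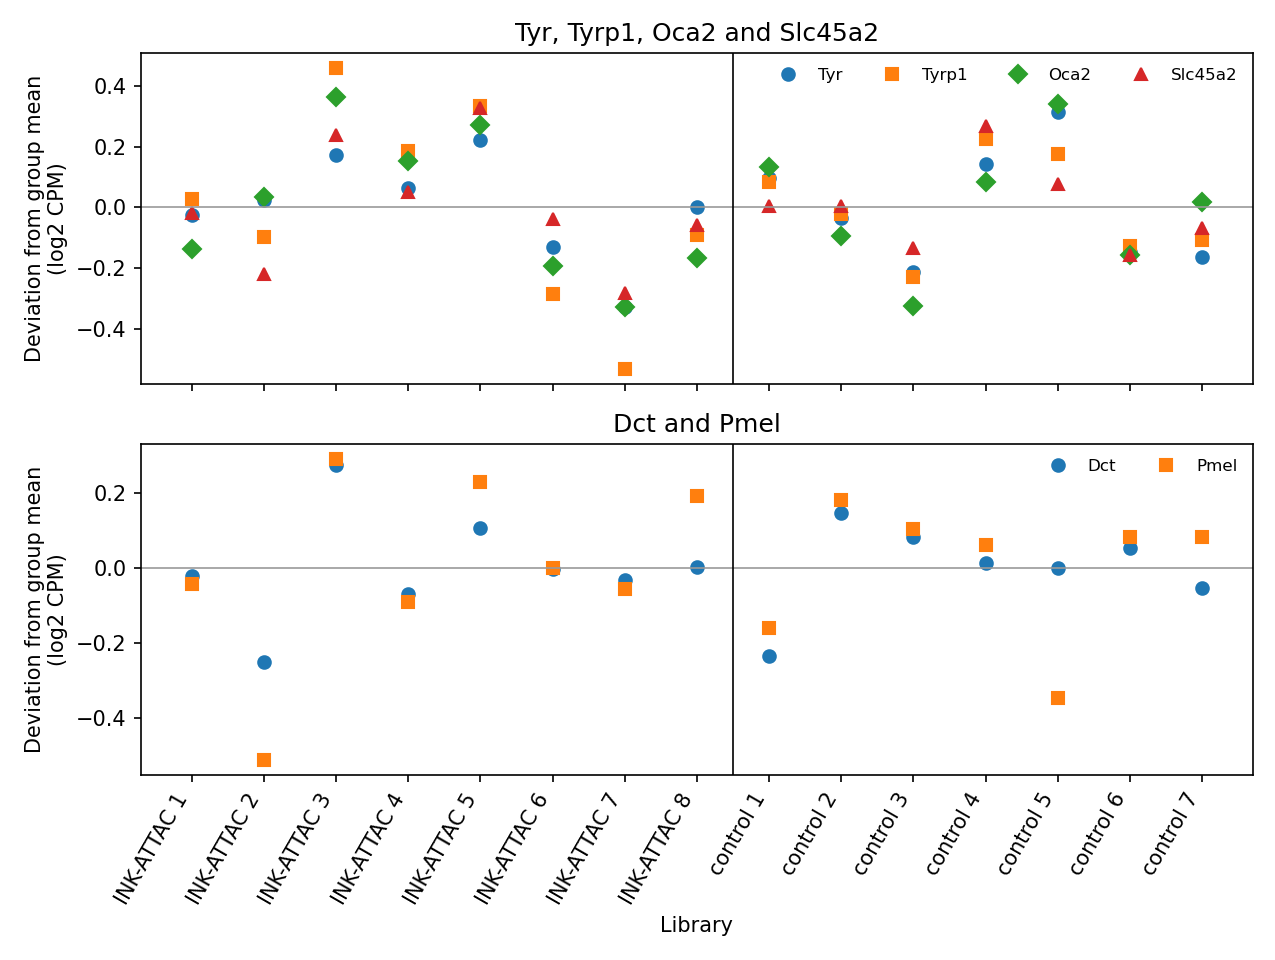
Deviation of each library from its group's mean (log2 CPM), with the 8 INK-ATTAC libraries at the left and the 7 control libraries at the right of the vertical line. Upper panel, Tyr, Tyrp1, Oca2 and Slc45a2, which were high together in INK-ATTAC 3 and 5 and in control 4 and 5 and low together in INK-ATTAC 7 and control 3 and 6. Lower panel, Dct and Pmel, both lowest in INK-ATTAC 2 within the INK-ATTAC group.

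The deviations show the size of this shared movement. In INK-ATTAC 3 Tyrp1 stood 0.46 above its group's mean log2 CPM, Oca2 0.36, Slc45a2 0.24 and Tyr 0.17. In INK-ATTAC 7 Tyrp1 stood at -0.53, Oca2 at -0.33, Slc45a2 at -0.28 and Tyr at -0.33. Control 5 was high for Tyr (0.31) and Oca2 (0.34) and low for Pmel (-0.35), so the scaffold gene and the enzyme parted in that library.

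Dct and Pmel formed another pair, with an r of 0.787 (permutation p = 0.0019, adjusted p = 0.00977) and a rho of 0.839 (permutation p = 0.00029, adjusted p = 0.00209). It was 0.595 without the 2 libraries farthest from the median, 0.917 within INK-ATTAC and 0.537 within control libraries. Across the groups of genes the relation was weak in the levels as measured: r was 0.09 for Tyr with Dct and -0.13 for Tyr with Pmel, neither past the threshold. Within groups, Tyr with Pmel had an r of 0.329 in INK-ATTAC and -0.789 in control libraries, a difference that was not tested. The first principal component of the 17991 genes held 19.0% of their variance within groups, and it had an r of 0.665 with Tyr and -0.683 with Pmel (permutation p = 0.0102 and 0.0069, adjusted p = 0.0801 for each, over 50 pairs of a gene and a library property). With that component removed, an alternative chosen after the values were seen, 16 of the 36 pairs passed. Some pairs that passed before no longer did. These were Mlana with Gpr143 (r = 0.494), Tyr with Slc24a5 (0.564) and Oca2 with Slc24a5 (0.555; permutation, adjusted p = 0.106, 0.0848 and 0.106). The component also had an r of 0.451 with Tyrp1, 0.552 with Oca2, 0.224 with Slc45a2 and -0.472 with Dct, none past the threshold. It thus runs in opposite directions in the 2 genes of each pair named next, and its removal raises their r by construction. Tyr then had an r of 0.597 with Pmel, not past the threshold (permutation, adjusted p = 0.0764), and of 0.613 with Dct (adjusted p = 0.0469). Pmel had an r of 0.762 with Tyrp1 and 0.787 with Slc45a2 (permutation, adjusted p = 0.0164 and 0.0112), against 0.188 and 0.407 before, and of 0.454 with Oca2, not past the threshold (permutation, adjusted p = 0.178).

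Slc24a5 varied with Tyrp1 by both measures of correlation, but within control libraries the relation was near 0. Its r with Tyrp1 was 0.828 over all libraries (permutation p = 0.00071, adjusted p = 0.00426; rho 0.711, permutation p = 0.00745, adjusted p = 0.0268), 0.948 within INK-ATTAC and 0.0811 within control libraries, where its range was narrow. With Tyr its r was 0.663 (permutation p = 0.00462, adjusted p = 0.0185), but its rho of 0.514 did not pass (permutation p = 0.0504, adjusted p = 0.136), and r was 0.984 within INK-ATTAC and 0.0365 within control libraries. With Slc45a2 and Oca2 its r was 0.693 and 0.653 (permutation, adjusted p = 0.0211 and 0.0202), but its rho did not pass (permutation, adjusted p = 0.127 and 0.0637). Within control libraries these r were 0.107 and 0.00989. With Gpr143 its r was 0.724 and its rho 0.729 (permutation, adjusted p = 0.0202 and 0.0208), and adjusted p reached 0.261 with a library left out. With Dct its r was 0.243 (permutation p = 0.426, adjusted p = 0.568), 0.413 within INK-ATTAC and -0.408 within control libraries. Whether the groups differ in these correlations was not tested. Without INK-ATTAC 7, r of Slc24a5 was 0.731 with Tyrp1 and 0.464 with Tyr (permutation, adjusted p = 0.0501 and 0.201). Gpr143 and Mlana, both membrane proteins of the melanosome, had an r of 0.689 (permutation p = 0.00631, adjusted p = 0.0202) and a rho of 0.714 (permutation p = 0.00554, adjusted p = 0.0222). Without INK-ATTAC 5 or INK-ATTAC 7 that r was 0.639 and 0.638 and no longer past the threshold (permutation, adjusted p = 0.0564 and 0.0819). The number of pairs past the threshold fell to 8 without INK-ATTAC 5 and to 6 without INK-ATTAC 7, against 13 with all libraries.

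**Figure D4:**
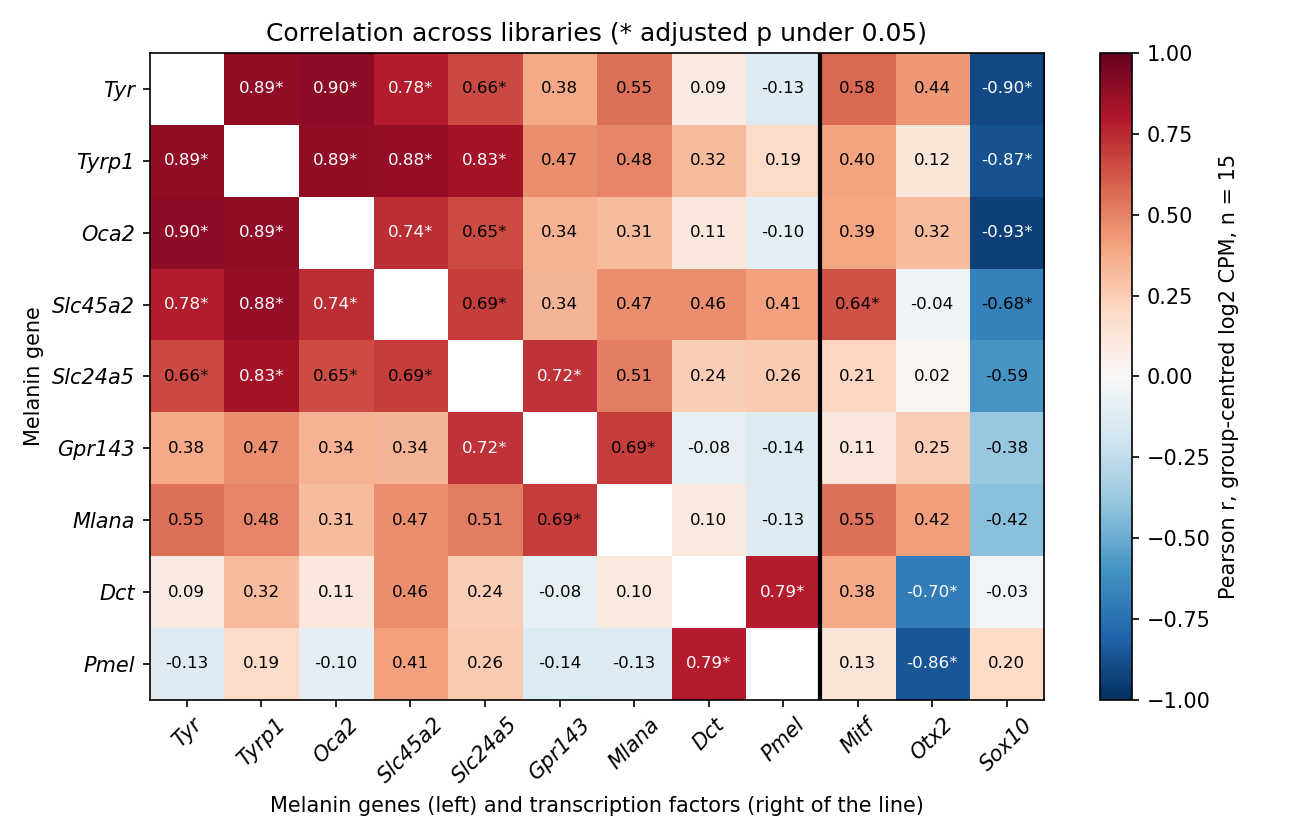
Pearson r over 15 libraries, from log2 CPM with each group's mean removed, for each pair of melanin genes and, right of the line, for each gene with Mitf, Otx2 and Sox10. Asterisks mark an adjusted p under 0.05 in a permutation test, over 36 pairs at the left and 27 at the right. Tyr, Tyrp1, Oca2 and Slc45a2 form a block of positive values and are negative with Sox10, and Dct and Pmel are negative with Otx2.

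Shared variation of this strength was not particular to melanin genes. The genes most like Tyr were Sdcbp, a scaffold protein of endosomes (r = 0.975), Snx2, a sorting nexin (r = 0.966), and Vps35, the core of retromer (r = 0.950). Oca2, its closest gene of the 9, ranked 59 among 11726 genes compared with Tyr. The genes most like Oca2 were Usp33, a ubiquitin protease (r = 0.965), and the endoplasmic reticulum chaperones Pdia4 (r = 0.964) and Hspa5 (r = 0.953). Slc45a2 was most like Rab18, a small GTPase (r = 0.923), Snx1 (r = 0.912) and Pnpt1 (r = 0.891), and its closest gene of the 9, Tyrp1, ranked 5. Tyrp1 was most like Zfp869, Klhl13 and Usp33 (r = 0.929, 0.928 and 0.926). Dct was most like Vopp1, Gjb2 and Slc47a1 (r = 0.879, 0.865 and 0.845), and Pmel most like Fstl3, Otulinl and Dkk3 (r = 0.912, 0.906 and 0.906). Mlana was most like Naca, Smco3 and Brk1 (r = 0.944, 0.905 and 0.904), Slc24a5 most like Fbxo7, Dcaf11 and Zc3h14 (r = 0.887, 0.877 and 0.847), and Gpr143 most like Mad2l1bp, Laptm4b and Hadh (r = 0.900, 0.891 and 0.886). The mean of the 9 standardized levels was most like Zfp869, Zfp27, Cyp2j6, Aldh3a2, Optn and Clpx, with r between 0.868 and 0.879. All are over 15 libraries and share depth and tissue makeup, and they are given as descriptions.

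The variation was then set against marker levels of RPE and melanocytes, which use these genes, and of rods and skeletal muscle, as other tissue that could dilute both. Over 36 pairs of a gene and a marker list (RPE, melanocyte, rod and skeletal muscle), 0 passed the threshold. The highest was Pmel with the melanocyte list, with an r of 0.749 (permutation p = 0.00216, adjusted p = 0.0778) and a rho of 0.550 (permutation p = 0.042, adjusted p = 0.187), and the r was 0.422 without the 2 libraries farthest from the median. Tyr with the same list had an r of -0.632 (permutation p = 0.0169, adjusted p = 0.152) and a rho of -0.661 (permutation p = 0.0124, adjusted p = 0.181). Dct with the RPE list had an r of -0.652 (permutation p = 0.0149, adjusted p = 0.152) and a rho of -0.371 (permutation p = 0.186, adjusted p = 0.337). The melanocyte list stood at a mean log2 CPM of 4.55 ± 0.261 in INK-ATTAC and 4.63 ± 0.266 in control libraries, and the RPE list at 10.4 ± 0.119 in INK-ATTAC and 10.4 ± 0.125 in control libraries.

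Against single transcription factors, a comparison added after the levels were seen, 7 of 27 pairs passed the threshold. Tyr, Tyrp1 and Oca2 were lower in libraries with more Sox10. Oca2 with Sox10 had an r of -0.932 (permutation p = 1e-05, the smallest possible, adjusted p = 0.00027) and a rho of -0.929 (permutation p = 1e-05, adjusted p = 0.00027), and -0.885 without the 2 libraries farthest from the median. Within groups that r was -0.953 in INK-ATTAC and -0.907 in control libraries. Tyr with Sox10 had an r of -0.901 (permutation p = 4e-05, adjusted p = 0.00054; rho -0.896, permutation p = 5e-05, adjusted p = 0.000675), and Tyrp1 with Sox10 an r of -0.873 (permutation p = 6e-05, adjusted p = 0.00054; rho -0.875, permutation p = 0.00015, adjusted p = 0.00135). These 3 pairs stayed past the threshold with each library left out in turn. Many genes shared this relation, and among 11718 genes Oca2 had the 7th, Tyrp1 the 36th and Tyr the 69th most negative r with Sox10. Sox10 itself had an r of 0.659 with total counts (permutation p = 0.00965, adjusted p = 0.0801) and of -0.656 with the first principal component (permutation p = 0.0122, adjusted p = 0.0801). Tyr had an r of -0.598 with total counts (permutation p = 0.0287, adjusted p = 0.103) and of 0.651 with the mitochondrial share of counts (permutation p = 0.00841, adjusted p = 0.0801). With the first component removed, r with Sox10 was -0.906 for Oca2, -0.857 for Tyrp1 and -0.824 for Tyr, all past the threshold (permutation, adjusted p = 0.00054, 0.0027 and 0.00256). The part of total counts and of the mitochondrial share in the relation was not tested. The Schwann cell list, of the same neural crest origin, had an r of 0.277 with Sox10 (permutation p = 0.330).

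**Figure D5:**
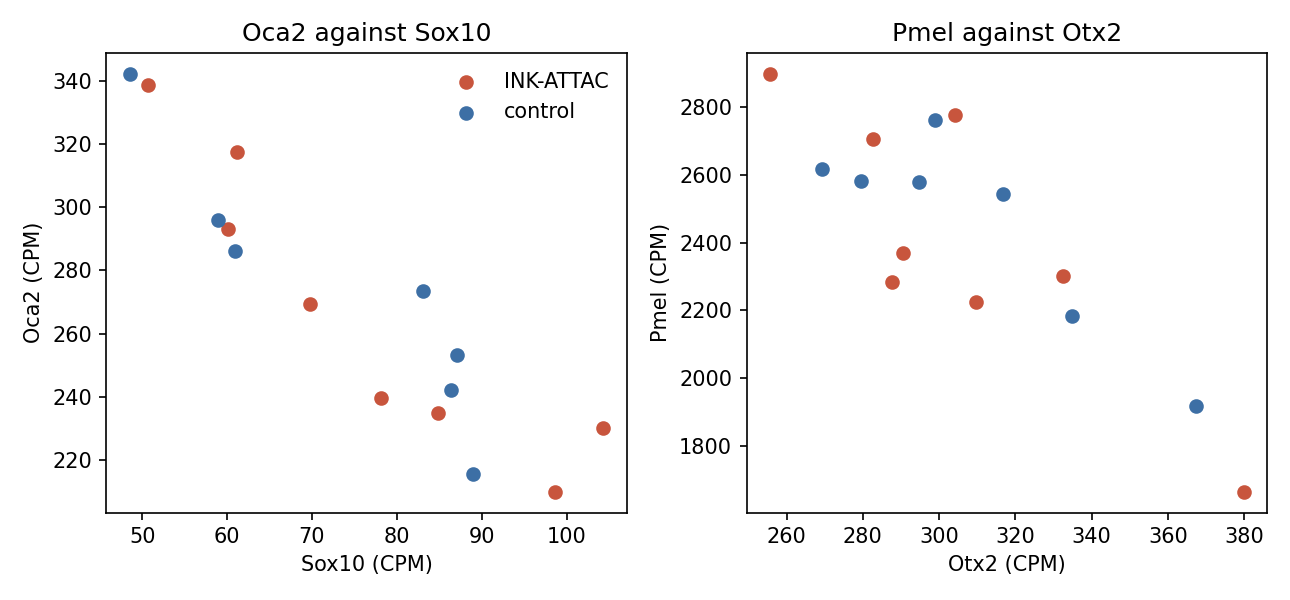
Left, Oca2 against Sox10, and right, Pmel against Otx2, in CPM, with 1 point for each of the 8 INK-ATTAC and 7 control libraries. Both relations run downward in both groups. At the left, the 3 libraries with the least Sox10 hold 296 to 342 CPM of Oca2, and at the right INK-ATTAC 2 and control 5 hold the highest Otx2 and the lowest Pmel.

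Pmel, and less steadily Dct, was lower in libraries with more Otx2. Pmel with Otx2 had an r of -0.858 (permutation p = 0.00019, adjusted p = 0.00128) and a rho of -0.729 (permutation p = 0.00434, adjusted p = 0.0241), the 3rd most negative among 11718 genes. The r was -0.859 within INK-ATTAC and -0.867 within control libraries, and -0.641 without the 2 libraries farthest from the median. That pair stayed past the threshold with each library left out and with the first component removed (r = -0.710, permutation, adjusted p = 0.0381). Dct with Otx2 had an r of -0.701 (permutation p = 0.00691, adjusted p = 0.0346) and a rho of -0.568 that did not pass (permutation p = 0.0342, adjusted p = 0.113). It did not pass without INK-ATTAC 2 or 3 or control 3 or 6 (permutation, adjusted p up to 0.124, r = -0.562 without INK-ATTAC 2), nor with the first component removed (adjusted p = 0.0675). Slc45a2 was the 1 gene that passed with Mitf, with an r of 0.639 (permutation p = 0.00898, adjusted p = 0.0346) and a rho of 0.686 (permutation p = 0.00446, adjusted p = 0.0241), and it also passed with Sox10 at an r of -0.677 (permutation p = 0.00838, adjusted p = 0.0346; rho -0.671, permutation p = 0.0103, adjusted p = 0.0462). The Mitf relation was 0.469 without the 2 libraries farthest from the median, did not pass with the first component removed (permutation, adjusted p = 0.0561), and did not pass without INK-ATTAC 2, 5, 7 or 8 or control 3, 4, 6 or 7 (adjusted p up to 0.232, r = 0.470 without INK-ATTAC 5). Slc45a2 with Sox10 did not pass without INK-ATTAC 1, 3, 5, 7 or 8 or control 3, 6 or 7 (permutation, adjusted p up to 0.0931), and passed with the first component removed (r = -0.721, adjusted p = 0.0369). The count of pairs past the threshold fell to 4 without control 3 or without control 6. Pmel also had an r of 0.790 with the Schwann cell list (permutation p = 0.00053, adjusted p = 0.0265; rho 0.707, permutation p = 0.00439, adjusted p = 0.0568).

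Mitf, whose product binds E-box letters such as those printed above, averaged 125 ± 16.2 CPM in INK-ATTAC and 158 ± 23.3 CPM in control libraries (SD, n = 8 and 7). It ran from 115 to 162 CPM in INK-ATTAC and from 135 to 190 CPM in control libraries. The ranges overlapped through INK-ATTAC 5, which stood at 162 CPM. Its log2 fold change was -0.33 (SE 0.10; edgeR, unadjusted p = 0.0026, adjusted p = 1.00), so it did not pass over all genes. Otx2 was level between groups, with 305 ± 37.4 CPM in INK-ATTAC and 309 ± 33.9 CPM in control libraries. Of the 10 pigment cell transcription factors tested, 4 had a positive and 6 a negative log2 fold change, with a median of -0.02 and 0 past the threshold.

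The rest of the melanosome machinery was described by lists of its parts, and 0 genes of any list were past the threshold. Of 23 genes that sort cargo to melanosomes (the AP-3, BLOC and HOPS complexes and their Rab proteins), 12 had a positive and 11 a negative log2 fold change, with a median of 0.01. The lowest unadjusted p there belonged to Bloc1s1, a subunit of BLOC-1, with 40.2 ± 4.65 CPM in INK-ATTAC and 35.6 ± 2.63 CPM in control libraries (log2 fold change 0.18, edgeR unadjusted p = 0.0319, adjusted p = 1.00). Rab32, a GTPase for delivery of the melanogenic enzymes, had 23.1 ± 2.43 CPM in INK-ATTAC and 26.2 ± 2.69 CPM in control libraries (log2 fold change -0.18, edgeR unadjusted p = 0.0412, adjusted p = 1.00). All 6 genes that move melanosomes along the cytoskeleton had negative estimates, with a median of -0.06, and Myo5a, the actin motor, had the lowest p of them (log2 fold change -0.16, SE 0.09, edgeR unadjusted p = 0.101). The other 5 include Rab27a, the GTPase that tethers the granule (-0.05, SE 0.08), Mreg (-0.25, SE 0.18) and Mlph, the linker between Rab27a and Myo5a (-0.06, SE 0.17).

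Of 9 genes for melanosomal ion, copper and cystine transport, 4 had a positive and 5 a negative log2 fold change, with a median of -0.05. Ctns, the cystine exporter, stood at -0.09 (SE 0.06) and Atp7a, the copper pump that loads tyrosinase, at -0.10 (SE 0.09). Of 7 genes for Pmel processing and melanin chemistry, 3 had a positive and 4 a negative one, with a median of -0.03. Mif, a dopachrome tautomerase in vitro, stood at 0.16 (SE 0.11), and Gpnmb, a relative of Pmel that macrophages also express, at -0.10 (SE 0.19). Of 10 genes for pigment signalling, 8 could be tested, and 2 had a positive and 6 a negative estimate, with a median of -0.09. Ednrb, the endothelin receptor of melanocytes, had 507 ± 82.0 CPM in INK-ATTAC and 582 ± 70.7 CPM in control libraries (log2 fold change -0.20, SE 0.10, edgeR unadjusted p = 0.0655), and Kitl stood at -0.20 (SE 0.17). Asip, the agouti antagonist of Mc1r, and Corin, the protease that limits it, fell under the filter with 0 to 15 and 0 to 21 counts per library.

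Where the genes lie is given on GRCm38 from the GENCODE annotation. Tyr lies at chr7:87424771-87493512 (minus strand) and Oca2 on the same chromosome at chr7:56239760-56536518 (plus strand). Tyrp1 lies at chr4:80834123-80851719, Pmel at chr10:128704195-128720238, Mlana at chr19:29697824-29708634, Slc45a2 at chr15:11000721-11029233, Slc24a5 at chr2:125068124-125088677 and Gpr143 at chrX:152781921-152808646, all on the plus strand. Dct lies at chr14:118012790-118052244 on the minus strand. All counts are over the exons of these genes.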

How the data were processed

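RNA was measured by sequencing in 15 RPE/choroid libraries. Per the labels' protocols, TRIzol and NucleoSpin columns gave the RNA, and SMARTer amplification gave the cDNA. Tools named in the submitters' processing notes are bcl2fastq, DRAGEN, edgeR and limma, with GRCm38 as the build. Tool versions, annotation release and strand setting: not given in the sources used here. The authors deposited raw read counts per Ensembl gene, 1 column per library. They also deposited a comparison table with log2 CPM, log2 fold changes, p-values and other scores, used here only as the authors' values (the scores were not used).

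Libraries were grouped by their titles. Of 40757 entries, 276 repeats were collapsed. Counts were scaled by TMM in edgeR 4.0.16 (R 4.3.3) and filtered with filterByExpr, and the groups were compared by edgeR's quasi-likelihood F-test, two-sided, with Benjamini-Hochberg adjustment over 17991 genes. SE is the absolute log2 fold change over the square root of F, and intervals are 95%. TPM used the union of exons of a GENCODE annotation of GRCm38. No 2 libraries of a group agreed within sampling noise (lowest chi-square per gene, 30). Amplified copies without molecular identifiers are not independent molecules. The edgeR steps were tested on simulated data.

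The 9 genes, the pathway and marker lists and the tests were chosen with earlier results of these data known. Named besides the 9 were up to 4 genes of lowest p per pathway list, defining markers, the 3 genes most correlated with each of the 9 and the 6 most correlated with their mean, among protein-coding genes of mean log2 CPM of at least 1. Mitf, Otx2 and Sox10 were set against the 9 after the levels were seen, as were the library properties. Alternatives were DESeq2 1.42.0, limma 3.58.1 (voom, with and without sample quality weights), RLE scaling, other filters and thresholds, covariates for RPE, melanocyte, rod, skeletal muscle and Xist level, the number in the titles as a block, no centring, longest transcripts and leaving out each library.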

Additional observations from a re-analysis of the deposited data

How the results depend on the processing

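Of the 9 genes, 0 passed in every setting tried. Over all genes the count was 0, but 6 with DESeq2, 2 with limma-voom and sample quality weights and 1 with the melanocyte level as covariate, and it was 0 in each fit that left out a library. The median log2 fold change of the 9 was -0.04 and ranged from -0.08 (without INK-ATTAC 5) to -0.0012 (rod level as covariate). Tyr, Tyrp1, Dct and Gpr143 kept a negative and Slc24a5 a positive estimate in every setting. The sign turned for Mlana with quality weights (0.018), for Pmel with the melanocyte (0.021), rod (0.017) or skeletal muscle (0.076) level as covariate, and for Slc45a2 with the rod level (0.0083). Leaving out single libraries, estimates ran from -0.080 to 0.012 for Mlana, from -0.091 to 0.022 for Pmel, from -0.105 to 0.0065 for Slc45a2 and from -0.089 to 0.022 for Oca2. For these turns the cause was not tested. Leaving out single libraries, the log2 ratio of Mlana over Pmel ran from 0.10 to 0.18. Per longest transcript it was 0.27, and that of Tyrp1 over Dct was 0.10. The pairs of the 9 genes past the threshold numbered 6 to 15 with a library left out, those with marker lists 0 to 1, and those with the 3 transcription factors 4 to 8.

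By the numbers in the titles, some same-numbered libraries of the groups deviated together and others did not. The correlation ran from -0.101 to 0.292 over the 7 numbers, and 4 of 7 INK-ATTAC libraries were closest to their own number, a share that was not tested. At number 4, the lowest, the list of sex-linked genes stood at a mean log2 CPM of 3.74 in INK-ATTAC and -1.14 in control. Whether sex bears on these correlations was not tested. Control libraries carry other numbers in the deposited column names than in their titles, and pairing by column name was not tried. Treating the title number as a replicate block gave 0 of the 9 genes and 0 of all genes past the threshold, and Mlana stood at 0.0042.

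With 8 against 7 libraries, the 95% intervals of the 9 genes reach from a fold of 0.743 (lower end for Tyrp1) to 1.16 (upper end for Slc24a5). Differences inside each gene's own interval remain possible, and the smallest detectable difference was not computed. Counts were high enough that depth was not the limit for these genes, unlike Cdkn2a. Age, sex and animal identity are not in the labels used here. Of the sex-linked transcripts, Xist ran from 0.551 to 108 CPM in INK-ATTAC and from 0.635 to 94.95 CPM in control libraries. Ddx3y, on the Y chromosome, ran from 0.0191 to 96.2 CPM in INK-ATTAC and from 0 to 95.9 CPM in control libraries. By these transcripts each group held libraries of both sexes. Only the Xist covariate addressed sex in the group test, and the part of sex in the correlations was not tested.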
